A study of Homo sapiens with 6 samples.

Results

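Clusters that the authors annotated to the 5'UTR, the stretch of an mRNA ahead of its coding sequence, were described in 5 PAR-CLIP libraries of HEK293, an established cell line from human embryonic kidney. A cluster is a genomic interval in which the PARalyzer program found overlapping reads with T-to-C conversions. Members were all rows of the cluster tables whose region label was 5'utr, which gave 6904 of 1717084 clusters. G20 held 1334 of them, G35 549, G45 342, HuR replicate 1 197 and HuR replicate 2 4482. The Total library carried no region label, and 895 of its 200602 clusters overlapped a member by at least 1 bp on the same strand.

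G20, G35 and G45 were cut from the gel at about 20, 35 and 45 kDa after a FLAG immunoprecipitation from a cell line with a doxycycline-inducible, FLAG-tagged green fluorescent protein, which served as the control. HuR (ELAVL1) was immunoprecipitated from cells expressing it from a doxycycline-inducible transgene, and Total came from crosslinked, RNase T1 digested lysate with ribosomal RNA depleted and no immunoprecipitation. All 6 libraries came from cells fed 4-thiouridine (4SU) and irradiated at 365 nm. Each slice and Total was 1 library, HuR had 2 replicates, and nothing in the labels says that the HuR replicates were separate cultures. The libraries held between 6187300 (G35) and 38644636 (G20) reads in sites, with 9525265 and 32111810 reads in HuR replicates 1 and 2. HuR replicate 1 stood apart in that none of its 5'UTR clusters rested on 1 conversion location, against 65.9% in G20, 76.7% in G35, 71.3% in G45 and 45.8% in HuR replicate 2.

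The 5'UTR is scanned by the small ribosomal subunit on its way from the cap to the start codon, and its length, folding and short upstream reading frames are known to set how well an mRNA is translated. In human genes it is rich in G and C, because many promoters lie in CpG islands that run into the first exon. HuR is known for binding U-rich and AU-rich stretches, mostly in 3'UTRs and introns, and for stabilizing its targets. PAR-CLIP places a 4SU crosslink next to the bound protein, and reverse transcriptase reads the crosslinked base as C. RNase T1 cuts RNA after G, which sets where most fragments end.

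The sequences below are from the deposited tables and show the sites that held the most 5'UTR reads in a library, written 5′ to 3′ on the mRNA strand as DNA, with runs of at least 3 G or 3 T in capitals. All positions are in hg19 (GRCh37), and the sequences of all 6904 members matched that build.
KCTD20, HuR replicate 1, chr6:36411303-36411320, plus strand: attaggtagttggtGGGG
DUSP10, HuR replicate 2, chr1:221910447-221910469, minus strand: gtggagttgtggataGGGGtgac
HOXB4, G20, chr17:46657266-46657288, minus strand: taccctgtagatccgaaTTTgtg
PRMT8, G35, chr12:3600557-3600575, plus strand: gaagaacttgaaaccgtgt
AC110491.1, HuR replicate 1, chr3:97540937-97540952, plus strand: cgtcgagtcggtctgc
ZNF8, HuR replicate 1, chr19:58790360-58790375, plus strand: gttcggcgagtcGGGt
The most read cluster of CCNI in HuR replicate 2 was 40 nt long and is not printed. The HOXB4 sequence is that of a microRNA, miR-10a-5p, whose mature form in RefSeq (GRCh38.p14) follows with its seed, bases 2 to 8, in capitals.
hsa-miR-10a-5p: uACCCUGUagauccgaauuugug

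A second set shows mRNAs with clusters in both kinds of library, since the G-rich and T-rich stretches in them recur in the base counts given further on. The set does not represent the members. A VEGFA cluster in HuR replicate 2, not printed, also held runs of G, and a BCL2 cluster in G35, not printed, held a run of 3 T. By GENCODE, the RPL5 site of HuR replicate 2 lay in a noncoding exon.
XPO1, HuR replicate 2, chr2:61763976-61764003, minus strand: tgagTTTGGGttGGGtGGGaggaagtgg
EFNA5, G20, chr5:107006450-107006476, minus strand: cttggtGGGcgcctcTTTccTTTctcg
EFNA5, HuR replicate 2, chr5:107006398-107006427, minus strand: cataTTTaTTTggcgcccgctctctctctg
RPL5, G20, chr1:93297639-93297662, plus strand: tcgagcagcggacgccggtctctg
RPL5, HuR replicate 2, chr1:93298919-93298945, plus strand: TTTTaataacattcTTTTTTcTTTaag
JUN, G20, chr1:59248867-59248896, minus strand: acgacagccagcGGGtgcgtgcgctcttag
JUN, HuR replicate 2, chr1:59249571-59249600, minus strand: cttaTTTTcTTTTcaccttctctctaactg
BCL2, HuR replicate 2, chr18:60986646-60986668, minus strand: cTTTTTTTTTTctcgagctcttg
VEGFA, G20, chr6:43737984-43738005, plus strand: tggcgctGGGGGctagcaccag

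5'UTR clusters made up 3.44% of the clusters of G20 (95% Wilson interval 3.26 to 3.62). The share was 0.807% in G35 (0.742 to 0.877), 0.593% in G45 (0.533 to 0.659), 0.501% in HuR replicate 1 (0.436 to 0.575) and 0.296% in HuR replicate 2 (0.288 to 0.305). G20 lay above the other 4 libraries, and its interval met none of theirs, whereas the intervals of G45 and HuR replicate 1 overlapped. The HuR mean was 0.398% ± 0.145 (SD, n = 2). These intervals cover counting error only, and with 1 library for each slice no test between groups was made. Weighted by reads, the order was different, with 0.0787% in G20, 0.299% in G35, 0.202% in G45, 0.905% in HuR replicate 1 and 0.363% in HuR replicate 2. Relative to depth, HuR replicate 2 had the most clusters, 140 per 1000000 reads, followed by G35 with 88.7, G45 with 45.4, G20 with 34.5 and HuR replicate 1 with 20.7. Counted in all libraries with at least 5 reads and 2 conversion locations, as the HuR replicate 1 table is, the values were 75.7 in HuR replicate 2, 20.7 in G35, 20.7 in HuR replicate 1, 13.0 in G45 and 11.8 in G20, so HuR replicate 1 was no longer the lowest. Coding clusters outnumbered 5'UTR clusters 6.98 times in G20, 7.90 times in G35 and 7.76 times in G45, but 1.85 and 4.31 times in HuR replicates 1 and 2. In bulk libraries such as these, fewer cells crosslinked at a site and less RNA per cell cannot be told apart.

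**Figure D1:**
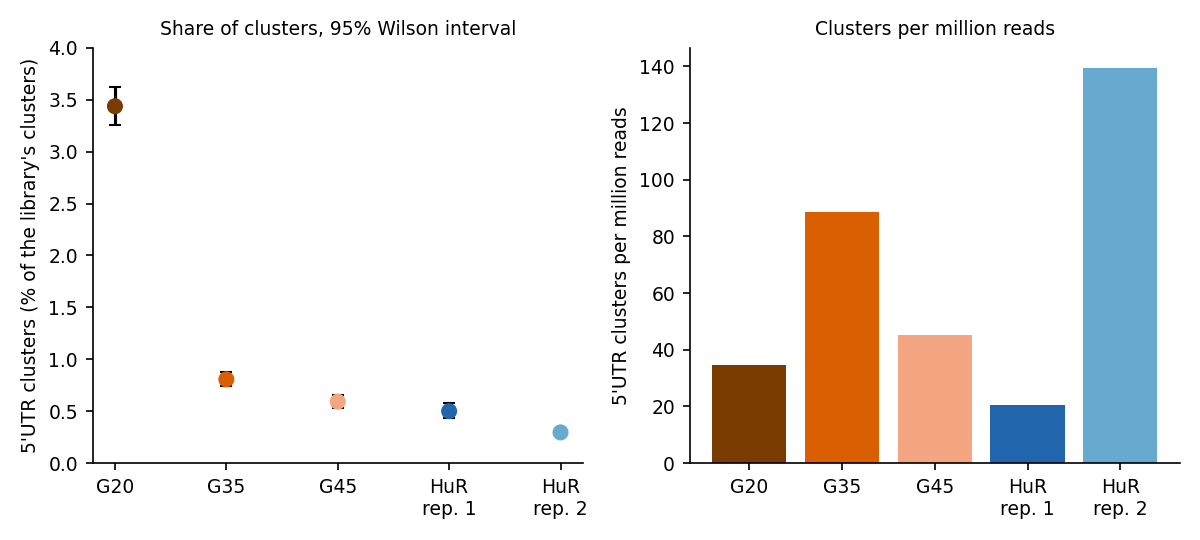
The left panel plots 5'UTR clusters as a percent of each library's clusters with 95% Wilson intervals, and the right panel plots 5'UTR clusters per 1000000 reads. G20 has the highest share (3.44%) but 34.5 clusters per 1000000 reads, and HuR replicate 2 has the lowest share (0.296%) with 140 per 1000000 reads.

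The label was checked against GENCODE release 44 lifted to the same build. The midpoint of a cluster fell in an annotated 5'UTR on its strand for 90.3% of the G20 members, 81.6% in G35, 84.8% in G45, 75.6% in HuR replicate 1 and 78.2% in HuR replicate 2. Introns took from 2.47% (G20) to 9.66% (HuR replicate 2) of the midpoints. Several of the most read sites were among the exceptions, since the KCTD20 and HOXB4 sites lay in noncoding exons, the DUSP10 site in an intron and the CRYBB1 site between genes by that annotation.

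A few sites held much of the read count. The 3 most read clusters took 14.2% of the 5'UTR reads in G20, 57.6% in G35, 62.5% in G45, 88.3% in HuR replicate 1 and 9.80% in HuR replicate 2. The KCTD20 site held 1394, 3960, 4029, 4130 and 1733 reads in G20, G35, G45 and HuR replicates 1 and 2, against 6 in Total. Almost none of them carried a conversion, with 0.0717 to 0.635 events per 100 reads. The DUSP10 site held 1084, 3665, 2951, 895 and 2549 reads and 4 in Total, and DUSP10 encodes a phosphatase of the stress kinases p38 and JNK. In the 4 libraries where it was among the 3 most read clusters, 99.2 to 99.8 events per 100 reads were recorded there, all at 1 location. Thus these 2 heavily read sites were opposite in conversion.

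The PRMT8 site held 294, 1100 and 915 reads in the slices, 39 and 543 in HuR replicates 1 and 2, and 0 in Total. PRMT8 encodes an arginine methyltransferase. The HOXB4 site, with the sequence of miR-10a-5p, held 1063, 442, 332, 14 and 401 reads and 54 in Total. For 2 further sites the reads came almost entirely from 1 library. The AC110491.1 site held 10331 reads in HuR replicate 1, which was 52.7% of that library's 5'UTR reads, against 22, 105 and 128 in the slices and 10 in HuR replicate 2. The ZNF8 site held 2850 reads in HuR replicate 1 and 6, 3, 16 and 26 elsewhere. The converse held for CCNI, which encodes cyclin I, with 4331 reads in HuR replicate 2 at a site that held 22, 16, 7 and 26 reads in G20, G35, G45 and HuR replicate 1. Thus the HuR replicates differed widely from each other at their most read sites.

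Clusters inside microRNA hairpins numbered 5 in G20, 2 in G35, 3 in G45, 0 in HuR replicate 1 and 4 in HuR replicate 2, and they took 5.18%, 2.95%, 2.80%, 0% and 0.521% of the 5'UTR reads. Besides miR-10a-5p these included miR-484 at NDE1 (172 reads in G20 and 11 in G45) and miR-1307-3p at USMG5 (22 reads in G20 and 7 in HuR replicate 2).

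G content fell in order from the slices to HuR. Counted over all bases of the clusters together, G made up 40.7% in G20, 33.9% in G35, 30.2% in G45, 18.3% in HuR replicate 1 and 24.1% in HuR replicate 2. T content had the reverse order, with 17.5%, 23.5%, 28.5%, 38.1% and 33.8%, so both HuR replicates lay below every slice in G and above every slice in T. The same held for coding clusters, so it was not particular to the 5'UTR. Coding G was 34.6%, 28.9%, 27.8%, 17.1% and 22.6%, and coding T 18.0%, 22.0%, 23.4%, 32.6% and 30.6%. C varied less, from 21.6% in HuR replicate 2 to 27.3% in G20, and G and C together ran from 42.5% (HuR replicate 1) to 68.0% (G20). Total clusters at the same places held 21.4% G, 30.3% C and 28.5% T.

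Within each library the 5'UTR clusters were set against the coding clusters, which passed through the same gel, depth and mapping. G was higher in the 5'UTR in 5 of 5 libraries, by 3.23 percentage points on average ± 2.21 (SD, n = 5). A was lower in 5 of 5, by -6.64 points on average. An exact two-sided sign-flip permutation test over the 5 libraries gave p = 0.0625 for each, the smallest it can give, and 0.125 after Benjamini-Hochberg adjustment over the 4 bases, so neither could pass a threshold of 0.05. T was higher in 4 of 5, by 2.95 points on average (exact p = 0.125, adjusted 0.167), with G20 at -0.43. C was higher in 4 of 5, by 0.457 points (exact p = 0.625), a difference below the spread between libraries. Against the 3'UTR clusters T was lower by -8.78 points, so the sign for T depended on the region chosen for comparison.

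Short strings followed the single bases in that both HuR replicates lay below every slice in GGGG and above every slice in TTTTT. Among clusters of 20 to 30 nt, the string GGGG was present in 37.5% in G20, 20.3% in G35, 21.2% in G45, 8.74% in HuR replicate 1 and 14.5% in HuR replicate 2, and in 21.0%, 12.4%, 12.0%, 7.81% and 8.36% of coding clusters. TTTTT was present in 1.33%, 7.08%, 9.09%, 30.1% and 18.0%, and in 0.515%, 1.77%, 1.84%, 6.77% and 11.2% of coding clusters. Both were searched on the mRNA strand only. Each was more frequent in the 5'UTR in 5 of 5 libraries (exact p = 0.0625, adjusted 0.125 over the 4 sequence measures). At least 1 CG dinucleotide was present in 87.0% of the 5'UTR clusters in G20, 74.7% in G35, 68.7% in G45, 45.2% in HuR replicate 1 and 44.4% in HuR replicate 2. In coding clusters the shares were 69.6%, 58.7%, 56.0%, 46.8% and 35.5%. The 5'UTR was thus higher in 4 of 5 libraries (exact sign-flip p = 0.125, adjusted 0.167), with HuR replicate 1 at -1.67 points. G was the last base of 91.0%, 81.8%, 67.8%, 92.9% and 94.3% of clusters, so the G45 members ended in G least often.

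Conversions separated G20 from the other libraries, in 5'UTR and coding clusters alike. The median 5'UTR cluster had 20.0 conversion events per 100 reads in G20, 100 in G35, 100 in G45, 92.4 in HuR replicate 1 and 100 in HuR replicate 2. The medians of the coding clusters were 20.0, 100, 100, 92.9 and 100. For Total clusters at the same places the median was 18.8. A cluster with 1 location and a conversion in at least 95% of its reads was found 27 times in G20 (2.02%), 348 times in G35 (63.4%), 164 times in G45 (48.0%), never in HuR replicate 1 and 1500 times in HuR replicate 2 (33.5%). Among coding clusters the same shares were 1.59%, 63.1%, 52.2%, 0% and 44.0%. The count of 0 in HuR replicate 1 goes with its lack of clusters with 1 location. Fewer than 5 events per 100 reads were found in 53 of the G20 members (3.97%), 3 of G35, 5 of G45, 3 of HuR replicate 1 and 3 of HuR replicate 2.

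Summed over clusters, the 5'UTR held 29.0 events per 100 reads in G20, 68.0 in G35, 59.8 in G45, 11.6 in HuR replicate 1 and 96.0 in HuR replicate 2. The coding clusters held 23.4, 35.8, 38.9, 6.0 and 78.0, lower in 5 of 5 libraries (mean difference 16.5, exact sign-flip p = 0.0625, adjusted 0.250 over 4 measures). This difference rested on a few heavily read clusters. Without the 10 most read clusters of each region it was -1.56 with a positive sign in 2 of 5 libraries (exact p = 0.250), and HuR replicate 1 moved from 11.6 to 94.6 events per 100 reads.

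**Figure D2:**
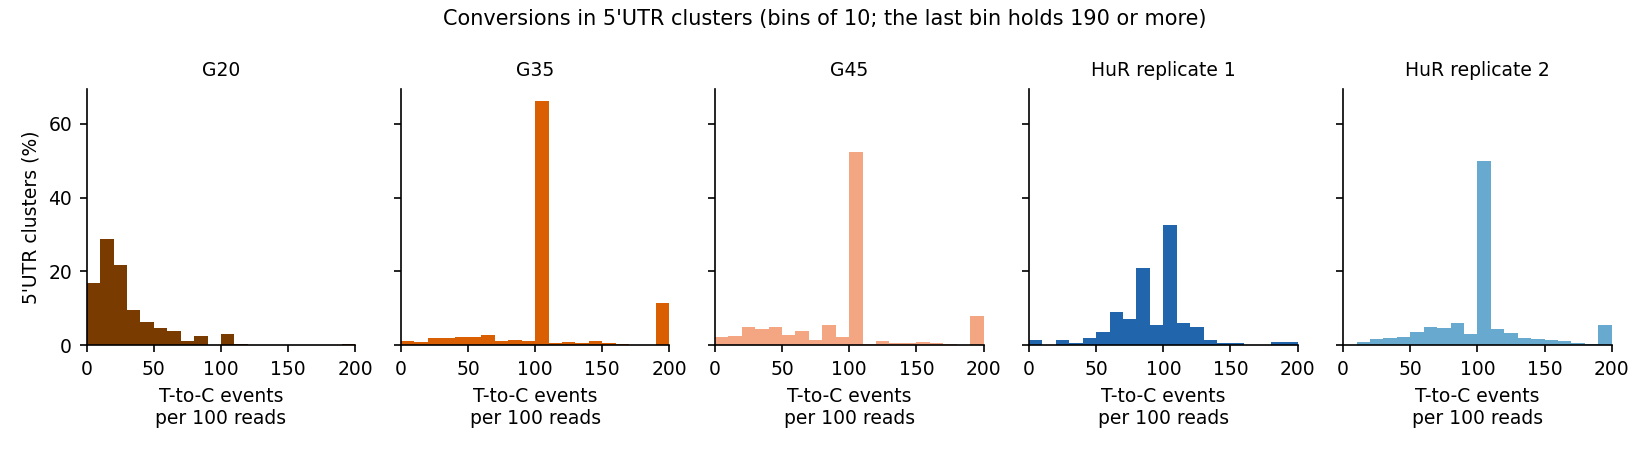
Each panel is 1 library and plots the percent of its 5'UTR clusters in bins of 10 conversion events per 100 reads, with 190 or more in the last bin. The bin from 100 to 110 holds 66.1% of the G35 clusters and 3.00% of those of G20, whose clusters lie mostly below 30.

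Of the members, 996 in G20, 372 in G35, 246 in G45, 133 in HuR replicate 1 and 3058 in HuR replicate 2 could be placed on the transcript that the authors listed. The median distance of the cluster midpoint from the transcription start, counted along the mRNA, was 107.5 nt in G20, 132 in G35, 126 in G45, 315 in HuR replicate 1 and 203 in HuR replicate 2. The 5'UTRs that held them had median lengths of 285, 354, 365.5, 789 and 463 nt, so those of both HuR replicates were also the longest. In HuR replicate 1, HNRNPC alone held 24 of the 197 members, and its most read one lay 2401 nt from the start. The distances and lengths without HNRNPC were not computed. The median place along the 5'UTR was alike in all libraries, between 44.3% (G45) and 49.8% (HuR replicate 2) of its length. Within 50 nt of the start lay 21.3% of the placed members of G20, 16.9% of G35, 20.3% of G45, 9.02% of HuR replicate 1 (interval 5.24 to 15.1) and 14.3% of HuR replicate 2 (13.1 to 15.6).

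**Figure D3:**
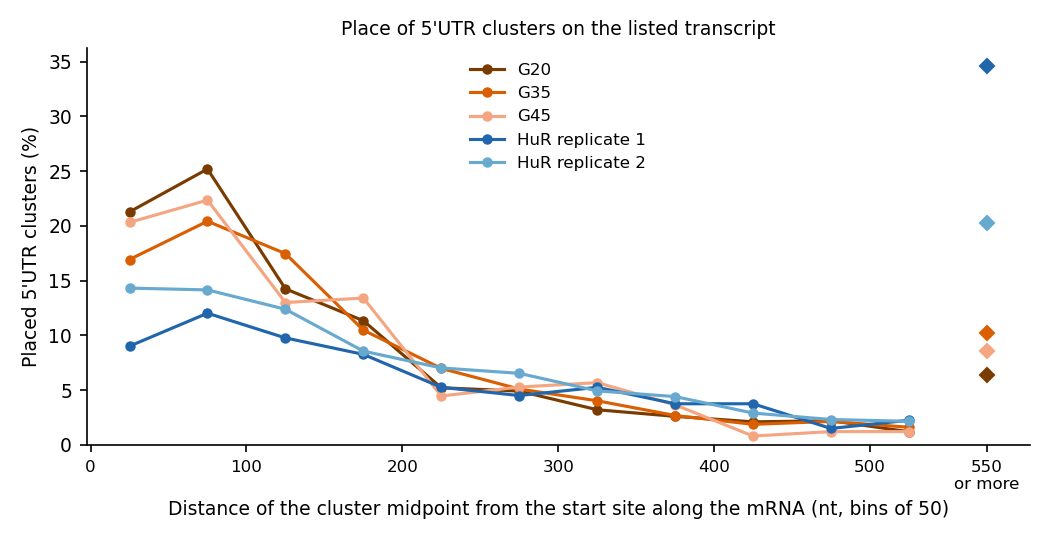
The percent of placed 5'UTR clusters is plotted against the distance of their midpoint from the start site in bins of 50 nt, with diamonds for 550 nt or more. All 3 slices have their highest bin between 50 and 100 nt, and 34.6% of HuR replicate 1 and 20.2% of HuR replicate 2 lie at 550 nt or more.

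Clusters under 50 nt from the start had more G than those farther along in 5 of 5 libraries, by 6.40 points on average (exact sign-flip p = 0.0625, adjusted 0.125 over 4 bases). The difference was 2.63 points in G20, 8.79 in G35, 4.66 in G45, 8.53 in HuR replicate 1 and 7.38 in HuR replicate 2. A was lower near the start in 5 of 5, by -3.03 points (the same p).

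The HuR members near the start met slice sites more often in HuR replicate 2. Of its 871 placed clusters under 100 nt from the start, 46.5% (43.2 to 49.8) overlapped a group, which is a site with any read, of at least 1 slice, against 33.0% (31.1 to 35.0) of the 2187 farther along. HuR replicate 1 had 53.6% of 28 (35.8 to 70.5) and 55.2% of 105 (45.7 to 64.4), which did not differ beyond counting error. In HuR replicate 2 the 1571 members that overlapped a slice group held 31.3% G and 29.1% T, and the 2911 that overlapped none held 19.7% G and 36.7% T. In HuR replicate 1 the 114 overlapping members held 21.0% G and 39.1% T, and the other 83 held 14.6% G and 36.6% T. G was thus higher in the overlapping members of both replicates, whereas T was lower in those of replicate 2 and higher in those of replicate 1.

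At 1 shared bp on the same strand, 13.3% of the G20 members, 27.5% of G35 and 41.2% of G45 overlapped a cluster of another slice, against 15.4%, 25.7% and 33.4% of coding clusters. A slice cluster was met by 23.9% of the members of HuR replicate 1 and 9.64% of replicate 2, against 45.5% and 11.9% of their coding clusters. Of the replicate 1 members, 86.8% overlapped a replicate 2 cluster, and 3.70% of the replicate 2 members overlapped a replicate 1 cluster. Total clusters were met by 24.9%, 18.4%, 21.6%, 41.1% and 13.4% of the members of G20, G35, G45 and HuR replicates 1 and 2. No other library had a cluster at 56.9%, 54.3%, 38.0%, 7.61% and 78.6% of them, and at 54.1%, 57.0%, 49.6%, 9.32% and 70.5% of the coding clusters. When groups of the other library were counted in place of clusters, 7.05%, 15.8%, 9.65%, 1.52% and 31.0% remained without a partner.

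The members named 3013 genes, 1016 in G20, 503 in G35, 323 in G45, 116 in HuR replicate 1 and 2174 in HuR replicate 2. Of the 3013, 2255 had a 5'UTR cluster in 1 library, 507 in 2, 160 in 3, 72 in 4 and 19 in all 5. The slices named 1475 genes and HuR 2181, with 643 in common, which was 43.6% of the slice genes and 29.5% of the HuR genes. Of the genes of HuR replicate 1, 109 of 116 (94.0%) were also named by replicate 2.

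Among the 19 genes in all 5 libraries, the 8 with the highest value of their lowest RPM, the reads per 1000000 reads of the library, were KCTD20, C6orf62, CRYBB1, EFNA5, CCNI, PABPC1, HOXB4 and XPO1. For PABPC1, the cytoplasmic poly(A)-binding protein, whose 5'UTR holds an A-rich stretch that the protein itself binds, the reads in 5'UTR clusters were 2.77, 9.05 and 7.30 RPM in G20, G35 and G45 and 0.840 and 22.7 RPM in HuR replicates 1 and 2. XPO1, the main nuclear export receptor for proteins, had 1.55, 0.808 and 1.46 RPM in the slices and 4.30 and 20.9 RPM in HuR, so both HuR values lay above the slices. EFNA5, a ligand of Eph receptors, had 1.22, 5.33 and 5.57 RPM in the slices and 5.14 and 33.4 RPM in HuR, and its groups overlapped. CRYBB1, a lens crystallin gene, had 1.27, 1.62 and 11 RPM in the slices and 2.52 and 1.43 RPM in HuR, with G45 the highest. By GENCODE, 0 of its 5 clusters lay in a 5'UTR, and the site was intergenic.

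Genes with many clusters were few. BRD2, a bromodomain protein that reads acetylated histones, had 9 clusters in G20, 4 in G35, 0 in G45, 0 in HuR replicate 1 and 6 in HuR replicate 2. C6orf62 had 8, 5, 3, 10 and 29, with G at 43.6% in G20 and 17.3% in HuR replicate 1. HNRNPC, a nuclear protein that binds U-rich stretches of pre-mRNA, had 0, 4, 2, 24 and 45 clusters between positions 21722706 and 21736783 of chromosome 14, and 74 of the 75 lay in a GENCODE 5'UTR. Its reads in 5'UTR clusters were 0, 34, 12, 347 and 3880, or 0, 5.50, 1.59, 36.4 and 121 RPM, and both HuR values lay above all slices.

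Lists of genes known for control through the 5'UTR were counted next. TOP mRNAs carry a pyrimidine tract at the cap and encode ribosomal proteins and translation factors, and 43 of 103 had a 5'UTR cluster, 29 in G20, 10 in G35, 10 in G45, 4 in HuR replicate 1 and 32 in HuR replicate 2. RPLP1, a protein of the ribosomal stalk, had 264 reads in G20, 5 in HuR replicate 2 and no cluster in the other 3 libraries. RPL5 had 59, 10, 19, 7 and 284 reads, or 1.53, 1.62, 2.52, 0.735 and 8.84 RPM. EEF1D, an exchange factor subunit of translation elongation, had 83 reads in G20, 5 in G45 and 157 in HuR replicate 2. Of the placed clusters in TOP mRNAs, 16 of 35 in G20 (45.7%) and 13 of 51 in HuR replicate 2 (25.5%) lay within 50 nt of the start, against 20.4% and 14.1% for all other genes. The counts were 2 of 9 in G35 (22.2% against 16.8%), 2 of 6 in G45 (33.3% against 20.0%) and 0 of 2 in HuR replicate 1 (0% against 9.16%). The 5'UTRs of TOP mRNAs in G20 and HuR replicate 2 were also shorter, with medians of 186 and 249 nt against 290 and 467 nt.

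mRNAs whose upstream reading frames serve in the stress response had clusters for 5 of 8 genes. PPP1R15B, which guides a phosphatase to eIF2, had 73 reads in G20, 8 in G35 and 7 in HuR replicate 2. ATF4, the transcription factor of that response, had 10 reads in G20 and 20 in HuR replicate 2. Of the 8 genes of polyamine and iron control, 6 had clusters. FTL, the ferritin light chain with an iron-responsive element in its 5'UTR, had 42 reads in G20, 8 in G45 and 10 in HuR replicate 2, and AMD1, an enzyme of polyamine synthesis with an upstream reading frame, had 67 reads in HuR replicate 2 alone. HuR replicate 1 had no cluster in either list.

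All 4 genes listed for HuR binding in the 5'UTR in the literature had clusters in HuR replicate 2, and none had one in HuR replicate 1. IGF1R, a growth factor receptor, had 226 reads there (7.04 RPM) and no cluster in the slices. CDKN1B, the cell cycle inhibitor p27, had 108 reads (3.36 RPM) in HuR replicate 2 and 15 (0.388 RPM) in G20. HIF1A had 59 reads, and its most read cluster of at most 30 nt lay in an intron by GENCODE. XIAP, an inhibitor of caspases, had 10 reads in 1 cluster of 11 nt with 1 conversion event. HuR replicate 2 named 2174 of the 3013 genes with a member, so a cluster there was not particular to this list.

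Chaperones had clusters for 6 of 14 genes, and HSP90AB1 was in all 5 libraries with 30, 11, 20, 6 and 110 reads. Of the proto-oncogenes and cell cycle genes, 7 of 14 had clusters. JUN, a subunit of the AP-1 transcription factor, had 120, 18, 11, 6 and 34 reads, or 3.11, 2.91, 1.46, 0.630 and 1.06 RPM, so both HuR values lay below all slices. BCL2, which restrains cell death, had 5 reads in G20, 6 in G35 and 39 in HuR replicate 2, and VEGFA, a growth factor of blood vessels, had 7 in G20 and 40 in HuR replicate 2. Of the spliceosome and hnRNP genes, 13 of 16 had clusters. SRSF3, a splicing factor, had 81, 19, 13 and 16 reads in G20, G35, G45 and HuR replicate 2, and HNRNPK 6 and 272 in HuR replicates 1 and 2 with no cluster in a slice.

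Reads at the merged cluster regions were compared between HuR and the slices with edgeR's quasi-likelihood test, the slices standing as 3 background libraries although they are different parts of a gel. Of 6044 regions with a 5'UTR label, 221 (3.66%) passed the filter on low counts and 5823 did not, and a region could pass through the group where it is high, so the counts below describe those 221 and not the members. At an adjusted p under 0.05, 45 were higher in HuR (20.4%) beside 16.6% of all 30098 regions tested, and 0 were lower beside 0.14%. At an unadjusted p under 0.05 the counts were 77 and 6. DESeq2 called 66 and 8, beside 7482 and 510 of all 30098 regions. The median log2 fold change was 2.12 for 5'UTR regions, -2.05 for coding, 5.02 for 3'UTR and 1.504 for all regions. The 45 regions lay in 25 genes, 13 of them in HNRNPC, 4 in HOXB3, 3 each in C6orf48 and ZC3H11A, and 20 had no read in any slice. A group that spanned several regions was counted in each, so neighbouring regions can share reads and are not all separate results. For example, the HNRNPC regions starting at 21730905 and 21730932 both had 22 and 71 reads in HuR replicates 1 and 2. HOXB3 was named after its values were seen. Without HuR replicate 2 no region was called (43 and 13 at an unadjusted p under 0.05), and without HuR replicate 1 30 regions were called higher, 12 of them among the 45, and 13 lower. Without G35 the counts were 85 higher and 49 lower of 456 tested, beside 19829 and 1267 of all 58909 regions. Without G45 they were 93 and 32 of 475, beside 21526 and 979 of 57924. In both fits the share higher was thus below that of all regions, and the share lower above it. The TMM scaling factors ran from 0.288 (G20) to 3.43 (G45). With library totals in place of TMM scaling, 27 of the 45 were called. The median log2 fold change was then 0.66 for 5'UTR regions and -0.37 for all regions. The 5'UTR median was 2.97 without G20, 0.30 without G35 and 0.79 without G45. It was 2.04 without HuR replicate 1 and -4.16 without HuR replicate 2.

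The 8 genes with the smallest p are given with the reads of 1 region each. C6orf48, the host gene of small nucleolar RNAs, had 1, 0 and 0 reads in the slices against 70 and 357 in HuR replicates 1 and 2, or 7.35 and 11.1 RPM (edgeR adjusted p = 0.0232). With 1 read in the slices together the ratio of the pooled rates was 537, with a 95% exact interval of 95.9 to 21263 that covers counting error only. The C6orf62 region had 1, 0 and 0 reads against 35 and 312, a ratio of 436 with an interval of 77.8 to 17288 (the same adjusted p). The HNRNPC region had 0 reads in all slices against 32 and 283, which is at least 106-fold higher when the floor of 3 reads over the slices together is taken (edgeR adjusted p = 0.0232). That pooled floor is 0.0573 RPM, but the floor of G35 alone is 0.485 RPM, so such bounds do not hold for each slice. The C6orf48, C6orf62 and HNRNPC regions lay in a range of 0 to 7 reads in Total.

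ZC3H11A, a zinc finger protein of mRNA export, had 0 reads in the slices, 28 and 111 in HuR and 59 in Total, at least 55.8-fold higher in HuR than the slice floor. FUBP3, a protein that binds single-stranded nucleic acids, had 0 in the slices, 15 and 55 in HuR and 11 in Total, at least 28.7-fold higher. By GENCODE, the HuR replicate 1 cluster in this FUBP3 region lay in coding sequence. Clusters at other called regions of C6orf48 and ZC3H11A lay in a noncoding exon and a 3'UTR. That ZC3H11A cluster started at 203771013 of chromosome 1, and the ZC3H11A region named above at 203771252. The GENCODE classes of the C6orf48 and ZC3H11A regions named above are not given here. MORF4L2, a subunit of chromatin complexes, had 1, 0 and 0 reads in the slices, 20 and 366 in HuR and 124 in Total, a pooled ratio of 486 with an interval of 86.6 to 19226. ARHGEF11 had 0, 0 and 1 reads against 10 and 82, and LAP3, an aminopeptidase, 0, 1 and 0 against 13 and 76. These 8 regions were chosen for their small p among those called higher in HuR. That both HuR replicates lay above every slice in RPM in all 8 is therefore no separate support. Of all 221 regions tested, both HuR replicates lay above every slice in 60 and below every slice in 34. The same count was not made over all regions tested, so it is not known whether these shares are particular to the 5'UTR.

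**Figure D4:**
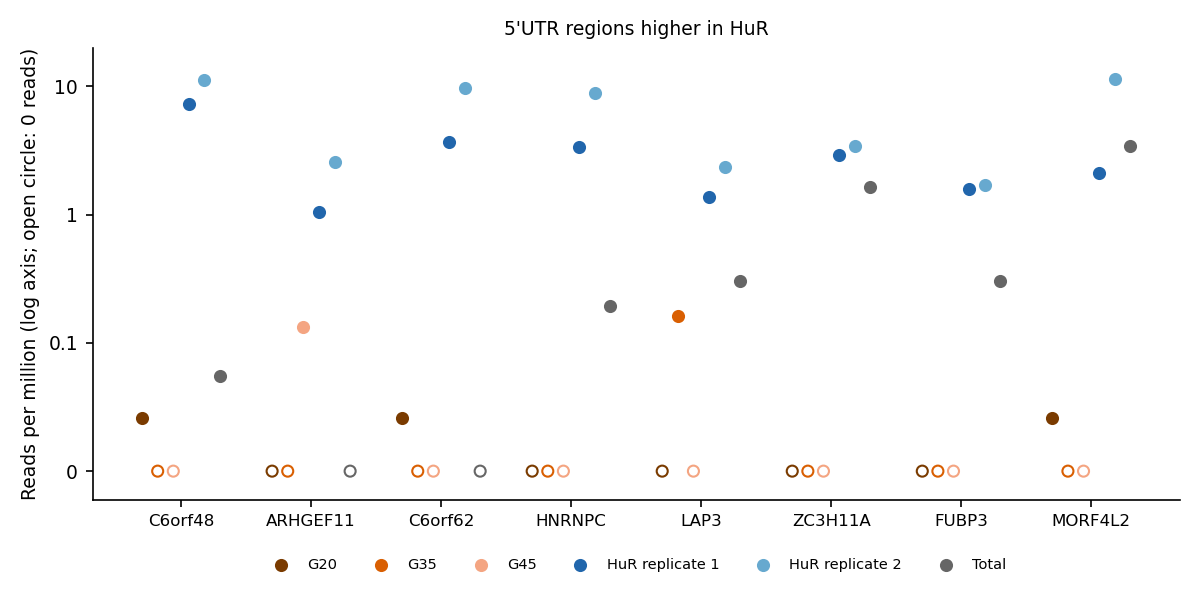
RPM on a log axis are plotted for 8 regions that the authors labelled 5'utr, in each of the 6 libraries, with open circles for 0 reads. Both HuR replicates lie between 1.05 and 11.4 RPM in every region, and no slice exceeds 0.162 RPM. The regions were chosen for the smallest p among those called higher in HuR.

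Of the lists, spliceosome and hnRNP genes had 20 regions tested, with 14 higher in HuR beside 16.6% of all regions, and 0 lower by edgeR, at an unadjusted p under 0.05 or by DESeq2. Of the 14, 13 belonged to the single gene HNRNPC and 1 to HNRNPK, and 8 of the 13 had no read in any slice and so passed the filter through HuR. TOP mRNAs had 12 regions of 9 genes tested, with 0 called in either direction by edgeR, 0 higher and 1 lower at an unadjusted p under 0.05, 0 higher and 2 lower by DESeq2, and a median log2 fold change of -2.91 beside 1.504 for all regions. None of the 5 regions tested in the polyamine and iron, chaperone and proto-oncogene lists was called by edgeR or DESeq2 or had an unadjusted p under 0.05, and no region of the upstream reading frame or HuR literature lists passed the filter. Of the 7 tested regions with the most reads over the slices and HuR, only ZNF8 was called by edgeR. Its log2 fold change was 9.33 (edgeR adjusted p = 0.0414), but 0.41 without HuR replicate 1 (edgeR adjusted p = 0.892) and not called without G35 (edgeR adjusted p = 0.0571) or HuR replicate 2 (0.0862), and its 0.810 RPM in HuR replicate 2 lay below the 2.12 RPM of G45. CCNI, at 6.64, and AC110491.1, at 7.94, missed the threshold with edgeR (adjusted p = 0.0504 and 0.0832) and passed it with DESeq2 (adjusted p = 0.000925 and 0.00193). Each rested on 1 replicate, since CCNI was at 1.01 without HuR replicate 2 and AC110491.1 at -4.08 without HuR replicate 1. KCTD20 had a log2 fold change of 1.46 (edgeR adjusted p = 0.439) and DUSP10 0.12 (edgeR adjusted p = 0.948), and with library totals in place of TMM they turned to -0.73 and -1.96. PRMT8 was at -1.30 (edgeR adjusted p = 0.460) and HOXB4 at -2.03 (edgeR adjusted p = 0.361). DESeq2 called none of these 4.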

How the data were processed

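The authors ran single reads of 50 bp, removed adapters, mapped to hg19 with Bowtie (its version is not given in the sources used here) and kept uniquely mapping reads in PARalyzer, with up to 2 T-to-C mismatches or none. The deposited values are whole-number counts of reads, conversion locations and conversion events per site, not normalized, beside a PARalyzer mode score that was not used here. Clusters needed at least 5 reads and 2 conversion locations per the study's methods, though every table but that of HuR replicate 1 lists clusters with a single location as well. Reads without molecular identifiers are not independent molecules. No table held columns of other samples.

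Libraries were grouped by their labels. Members and gene lists were chosen with earlier results of these data known. RPM are reads per 1000000 reads in a library's groups, with a floor of 3 reads. Overlap needed 1 bp on the same strand. Genes were named by rule as the 3 most read clusters per library, the 8 called regions with the smallest p in 1 region per gene, the 8 recurrent genes with the highest lowest RPM, and up to 4 genes per list. For edgeR (4.0.16, R 4.3.3), clusters of the 5 libraries were merged on each strand and reads of overlapping groups were summed. A group over several regions was counted in each of them. Low counts were filtered with filterByExpr and scaling was by TMM. DESeq2 1.42.0 was an alternative. Sequences were read as deposited. Python 3.11.15 was used with pandas 2.3.3, numpy 2.4.6 and scipy 1.17.1. Overlaps, sign-flip tests, intervals and the edgeR fit were tested on simulated data. Alternatives changed the cluster definition, the region label, the weighting, the comparison region, the overlap rule, the scaling, the filter, the test and the libraries.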

Additional observations from a re-analysis of the deposited data

Results flagged for a closer look

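The results here were those in which G20 or another slice differed in sign from both HuR replicates, and none of these differences between libraries was tested. T content in 5'UTR minus coding clusters was -0.43 points in G20 and 5.48 and 3.22 points in HuR replicates 1 and 2. Without the 10 most read clusters, conversion events per 100 reads in 5'UTR minus coding clusters were 1.06 in G20 and 1.68 in G45, against -3.12 and -3.43 in HuR. The share of clusters of 20 to 30 nt with GGGG, 5'UTR minus 3'UTR, was -4.19 points in G20 and 2.67 and 8.09 points in HuR. C content under 50 nt from the start site minus the rest was -3.01 points in G20 and -0.35 in G35, against 1.25 and 1.18 in HuR. T content by the same split was 1.48 points in G20 and -7.65 and -4.81 in HuR.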

How the results depend on the processing

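When regions came from GENCODE, G20 had 4.11% of its clusters in the 5'UTR, G35 0.961% and G45 0.712%. The share was 0.738% for G35 when clusters needed 5 reads and 2 locations. Weighted by reads they were 0.0787%, 0.299% and 0.202%, and the HuR mean was 0.634%. Counted by clusters, the HuR mean of 0.398% ranged from 0.296% to 0.501% when a replicate was left out. Genes with a 5'UTR cluster fell to 377 for G20, 124 for G35, 95 for G45 and 1237 in HuR replicate 2 under the 5-read, 2-location definition.

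C in 5'UTR minus coding clusters became -11.6 points weighted by reads, and T became -8.78 points against the 3'UTR. The conversion difference became -1.67 events per 100 reads as a mean over clusters, -1.56 without the 10 most read clusters and -26.0 against the 3'UTR. Leaving out a library gave 2.495 to 3.74 points for G, -7.37 to -6.13 for A, 2.32 to 3.80 for T, 12.6 to 19.2 events for conversions and -0.17 to 1.31 for C, which was negative in 1 of 5 cases.

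Slice members met another slice in 21.1% of cases, 18.5% with 50% of the cluster covered and 55.7% with groups. For HuR members and slices the values were 10.2%, 8.51% and 36.0%, and for all members and Total 17.2%, 14.9% and 57.0%. Regions called higher in HuR numbered 27 with library totals and 898 of 3452 without the filter. Over all regions the same fits called 3434 of 30098 and 351871 of 699123 higher. Without the filter the share higher was thus below that of all regions. 5'UTR regions called lower numbered 1 with DESeq2 size factors, 4 with library totals, 24 without the filter and 8 with DESeq2. Over all regions these fits called 229, 394, 2047 and 510 lower. Leaving out a library gave 0 to 93 higher and 0 to 49 lower, the lowest count higher without HuR replicate 2 and the highest without G45. Of the 8 named regions, all kept their call with DESeq2, DESeq2 size factors and no filter, 2 lost it with library totals (ARHGEF11 and LAP3), 1 without G20 (LAP3, with ARHGEF11 not tested), 2 without G35 (C6orf62 and MORF4L2), 1 without G45 (LAP3) and 4 without HuR replicate 1, where ZC3H11A moved from a log2 fold change of 9.47 to 9.03. The 6 tested without HuR replicate 2 lost it. The cause of these changes was not tested. No paired analysis was possible because only HuR has replicate numbers. Depth limits G35 most, where the floor of 3 reads is 0.485 RPM.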
